A study of Mus musculus with 8 samples.

Results

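The 984 regions described here are the H3K4me3 peaks that gained signal in lung tumor cells carrying the *Gpx4*m/m allele, out of 35486 peaks listed for the tumor model. They were selected on the measured values themselves: the lower of the 2 KLG4m/m values had to exceed 1.4 times the higher of the 2 KL values, and the mean of the KLG4m/m values had to be at least 5 CPM, where CPM is the number of reads in a peak per 1000000 reads in all listed peaks. Of all listed peaks, 28968 reached that mean and could pass. Because all 4 libraries chose the peaks, their height above KL is a description here and is not tested.

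H3K4me3 was profiled by CUT&Tag in tumor cells sorted as CD45-CD31-EpCAM+ from mouse lungs. The KL group, replicates 1 and 2, came from mice of the tumor model, which carry *Lkb1* fl/fl, from which Cre removes the kinase LKB1. The KLG4m/m group, replicates 3 and 4, came from mice that carried the *Gpx4*m/m allele as well. The protocol describes 1000000 cells per mouse, taken 10 weeks after Ad-Cre was given through the nose. Mice of both groups received Ad-Cre and tamoxifen, so tamoxifen is not a difference between them. In *Gpx4*m/m mice, the recombinase fusion DreERT2 is knocked into the *Gpx4* locus behind a stop cassette that Cre removes, and tamoxifen then lets it delete *Gpx4*. KLG4m/m cells therefore express DreERT2 and KL cells do not, and loss of *Gpx4* and presence of the knocked-in allele cannot be told apart in this design. The labels give no age, the protocol in the labels names 3 mice for 4 libraries, so that whether each library is a separate mouse is uncertain, and it describes cutting by a nuclease tethered through protein A/G. H3K27ac and RNA were not analysed here.

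H3K4me3 is the trimethyl mark on lysine 4 of histone H3, deposited by SET1 and MLL complexes around the start sites of active and poised genes. It is strongest at promoters rich in CpG dinucleotides, which recruit these complexes through CXXC domains, and weaker at CpG-poor promoters of tissue-restricted genes and at enhancers. In lung tumors that start from alveolar cells, the mark at lineage genes separates epithelial tumor cells from the leukocytes, endothelium and fibroblasts around them.

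The libraries held 3244495 to 3463731 reads in listed peaks. The peak at the *Gpx4* start site held 242 and 236 reads in KL and 304 and 301 in KLG4m/m. The rox sites of the allele enclose later exons and not the start site, so this peak does not check the knockout. Neither it nor any listed peak of *Stk11*, the gene of LKB1, was among the gained peaks. Of 8 epithelial markers 7 had a listed peak, of which 3 were lower in both KLG4m/m libraries than in both KL libraries, 2 higher and 2 overlapping. The peaks of *Epcam*, used in the sort, summed to 52.6 and 57.7 CPM in KL and 33.3 and 29.0 CPM in KLG4m/m, while those of *Krt18* held 62.4 and 58.3 against 66.0 and 60.4 CPM and those of *Esrp1* 30.0 and 21.4 against 30.1 and 31.7 CPM. Markers of cells that the sort should remove had peaks too: those of *Ptprc*, which encodes CD45, summed to 54.6 and 59.8 CPM in KL and 69.8 and 62.9 CPM in KLG4m/m. In such bulk libraries a change in the number of cells of a type and a change per cell cannot be told apart.

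Promoters of the gained set had fewer CpG dinucleotides, at the median, than other marked promoters, and 8 of them, chosen as examples of both kinds, are printed to show the range, with every CpG dinucleotide in capitals. The sequences are the 250 bases before the start site from RefSeq (GRCm38.p6), matched to the peaks by gene symbol and written 5′ to 3′ on the gene's strand. *Pgk1*, a glycolytic kinase, and *Kif11*, a mitotic kinesin, have the 2 strongest gained promoter peaks. The other 6 belong to genes known mainly from blood cells or inflammation: the metalloprotease *Adam8*, the B cell scaffold *Bank1*, the integrin *Itgam*, the interferon-induced *Ifitm1*, the ATP receptor *P2rx1* and the 5-lipoxygenase *Alox5*. They lie as follows: *Pgk1* at chrX:106186850-106187099 on the plus strand, *Kif11* at chr19:37376132-37376381 on the plus strand, *Adam8* at chr7:139992563-139992812 on the minus strand, *Bank1* at chr3:136326067-136326316 on the minus strand, *Itgam* at chr7:128062390-128062639 on the plus strand, *Ifitm1* at chr7:140967826-140968075 on the plus strand, *P2rx1* at chr11:72998895-72999144 on the plus strand and *Alox5* at chr6:116461179-116461428 on the minus strand.
Pgk1: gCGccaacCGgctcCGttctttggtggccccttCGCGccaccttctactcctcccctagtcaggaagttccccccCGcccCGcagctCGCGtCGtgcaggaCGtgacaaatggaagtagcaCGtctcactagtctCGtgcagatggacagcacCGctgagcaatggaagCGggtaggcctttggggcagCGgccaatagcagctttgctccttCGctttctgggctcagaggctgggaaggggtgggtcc
Kif11: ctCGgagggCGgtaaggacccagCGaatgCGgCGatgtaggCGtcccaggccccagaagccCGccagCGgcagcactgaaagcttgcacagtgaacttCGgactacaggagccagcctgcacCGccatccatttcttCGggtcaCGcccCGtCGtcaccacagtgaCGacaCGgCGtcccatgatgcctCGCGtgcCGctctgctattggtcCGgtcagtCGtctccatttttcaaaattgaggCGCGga
Adam8: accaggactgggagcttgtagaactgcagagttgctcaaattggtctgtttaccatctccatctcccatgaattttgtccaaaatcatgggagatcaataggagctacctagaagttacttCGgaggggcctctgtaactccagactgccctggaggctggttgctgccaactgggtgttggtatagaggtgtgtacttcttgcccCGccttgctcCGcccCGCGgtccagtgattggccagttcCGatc
Bank1: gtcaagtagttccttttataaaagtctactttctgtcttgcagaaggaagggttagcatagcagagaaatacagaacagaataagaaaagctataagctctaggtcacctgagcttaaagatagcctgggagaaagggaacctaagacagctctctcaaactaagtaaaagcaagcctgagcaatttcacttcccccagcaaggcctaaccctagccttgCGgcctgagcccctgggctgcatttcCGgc
Itgam: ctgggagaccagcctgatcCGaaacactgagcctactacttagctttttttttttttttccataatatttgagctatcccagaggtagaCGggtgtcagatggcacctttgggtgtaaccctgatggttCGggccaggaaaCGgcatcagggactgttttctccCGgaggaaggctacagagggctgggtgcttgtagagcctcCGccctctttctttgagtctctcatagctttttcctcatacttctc
Ifitm1: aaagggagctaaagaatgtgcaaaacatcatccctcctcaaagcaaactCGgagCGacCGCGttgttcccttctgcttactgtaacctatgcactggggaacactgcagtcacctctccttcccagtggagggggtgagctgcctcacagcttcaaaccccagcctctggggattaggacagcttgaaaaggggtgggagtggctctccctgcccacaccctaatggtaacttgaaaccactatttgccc
P2rx1: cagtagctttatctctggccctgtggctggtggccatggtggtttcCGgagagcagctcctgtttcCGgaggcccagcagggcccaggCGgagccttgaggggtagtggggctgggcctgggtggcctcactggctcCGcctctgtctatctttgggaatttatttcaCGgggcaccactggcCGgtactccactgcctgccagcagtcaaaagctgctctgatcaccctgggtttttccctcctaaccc
Alox5: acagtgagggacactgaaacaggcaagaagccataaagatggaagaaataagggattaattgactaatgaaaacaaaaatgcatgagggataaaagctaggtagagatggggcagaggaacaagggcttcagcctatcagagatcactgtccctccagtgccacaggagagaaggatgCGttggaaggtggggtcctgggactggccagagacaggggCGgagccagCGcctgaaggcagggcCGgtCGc

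The first 2 sequences hold 17 and 24 CpG dinucleotides, and the other 6 hold between 2 and 6. These 8 do not stand for all: among other gained promoters *Pik3ap1*, an adaptor of B cell receptor signalling, held 23 CpG dinucleotides, *AB124611*, with a strong peak of 63.9 CPM in KLG4m/m, held 3, and *Haao*, an enzyme of tryptophan breakdown, held 6. Of the 185 genes with a gained peak within 250 bp of their start site, 133 had a RefSeq window and 90 had exactly 1, which was used at its full length of 300 bases. The median ratio of observed to expected CpG was 0.316 in these 90 windows, 0.745 in the 7404 windows of promoters that could pass and 0.374 over all 22862 genes with 1 window. A ratio under 0.4 was found in 63.3% of the gained promoters and in 16.3% of those that could pass.

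Weak promoters are CpG-poor in general, so the windows were also set side by side in bands of KL level. Each gene was placed by its highest peak within 250 bp of the start site. A gene whose highest peak was not its gained one counted among the others, so the bands hold fewer than 90 gained promoters. Between 5 and 10 CPM in KL, 16 of 24 gained promoters (66.7%) and 230 of 458 others (50.2%) had a ratio under 0.4. Between 10 and 20 CPM in KL, 11 of 16 gained promoters (68.8%) and 279 of 699 others (39.9%) did. Between 20 and 50 CPM it was 6 of 9 (66.7%) against 374 of 1934 (19.3%). Below 5 CPM the order turned, with 21 of 31 gained promoters (67.7%) and 43 of 58 others (74.1%). From 50 CPM upwards there were only 2 gained promoters, neither of them under 0.4. The difference was thus seen from 5 to 50 CPM in KL and not below or above, and it was not tested. Level was not fully matched within a band. At 20 to 50 CPM, gained promoter peaks within 1 kb had a KL median of 26.6 CPM, and all that could pass 34.7 CPM. Below 5 CPM a peak could pass only by being higher in KLG4m/m, so that band compares only such peaks.

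Of 12 short motifs searched on both strands of the same 300-base windows, the GC box (GGGCGG) stood at 28.9% of gained promoters against 63.5% of those that could pass, and the CCAAT box (CCAAT) at 33.3% against 39.0%. The TATA box (TATAAA) was in 10.0% against 7.08%, and the antioxidant response motif (TGACNNNGC) in 17.8% against 14.8%. The ETS motif (CCGGAAGT) and the NRF1 motif (GCGCATGC), in 7.77% and 5.42% of promoters that could pass, and the ATF4 motif (TGATGNAAT), in 0.419%, had no match in the 90 windows. AP-1 (TGANTCA) reached 5.56% against 5.27%, the E-box (CACGTG) 5.56% against 10.3%, CRE (TGACGTCA) 2.22% against 3.19%, NF-kB (GGG and TTTCC with 2 bases between) 3.33% against 1.76% and the sterol response motif (TCACNCCAC) 3.33% against 1.11%. Apart from the CCAAT box and ATF4, the motifs found less often in the gained promoters all contain a CpG, and the last 5 motifs were found in 2 to 5 gained windows each. A match says only that the letters are there.

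Gained peaks lay mostly away from start sites. By the annotation of the deposited table, 249 were within 1 kb of a start site (25.3% of the gained peaks), 59 at 1 to 2 kb and 50 at 2 to 3 kb, so that 358 (36.4%) counted as promoter. Introns held 339 (34.5%), intergenic regions 193 (19.6%), exons 54, 3′ UTRs 27 and 5′ UTRs 13, and none lay in the class just downstream of genes. Among all peaks that could pass, 55.1% were within 1 kb of a start site, 18.5% intronic and 12.7% intergenic. Of the introns, 129 were first introns and 210 later ones. Peaks that spanned a start site gave 1.17 gained per 100 that could pass, peaks 3 to 10 kb away 4.99 and peaks 10 to 50 kb away 6.48. Upstream and downstream positions beyond 3 kb gave similar rates of 5.76 and 6.03 per 100.

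The class went with the level of the mark. Promoter peaks within 1 kb that could pass had a median of 46.2 CPM in KL, introns 8.81 CPM and intergenic peaks 9.24 CPM, while the gained peaks had a median of 4.84 CPM in KL and 9.12 CPM in KLG4m/m. Of the gained peaks, 504 (51.2%) lay below 5 CPM in KL, where a peak could reach the minimum mean only by being higher in KLG4m/m, so classes were compared by level only from 5 CPM upwards. At 5 to 10 CPM in KL, 4.45 of 100 promoter peaks within 1 kb and 4.45 of 100 peaks of all other classes were gained. At 10 to 20 CPM the rates were 2.23 and 2.44 per 100. They parted at 20 to 50 CPM, with 0.451 against 0.876, and from 50 CPM upwards, with 0.0544 against 0.467, where only 4 and 2 peaks were gained. Among the gained peaks above 5 CPM in KL, the lower rate of promoters was thus met from 20 CPM upwards, and no test was run on rates of a set chosen by its values. In these 2 bands level was not fully matched. Promoter peaks that could pass had KL medians of 34.7 and 72.6 CPM, and the other classes 27.6 and 63.7 CPM. By the mirrored rule 1783 peaks were lost, 47.5% of them within 1 kb of a start site, beside 48.1% of all listed peaks. That rule puts the minimum on the KL mean, so lost peaks need not be among those that could pass.

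**Figure D1:**
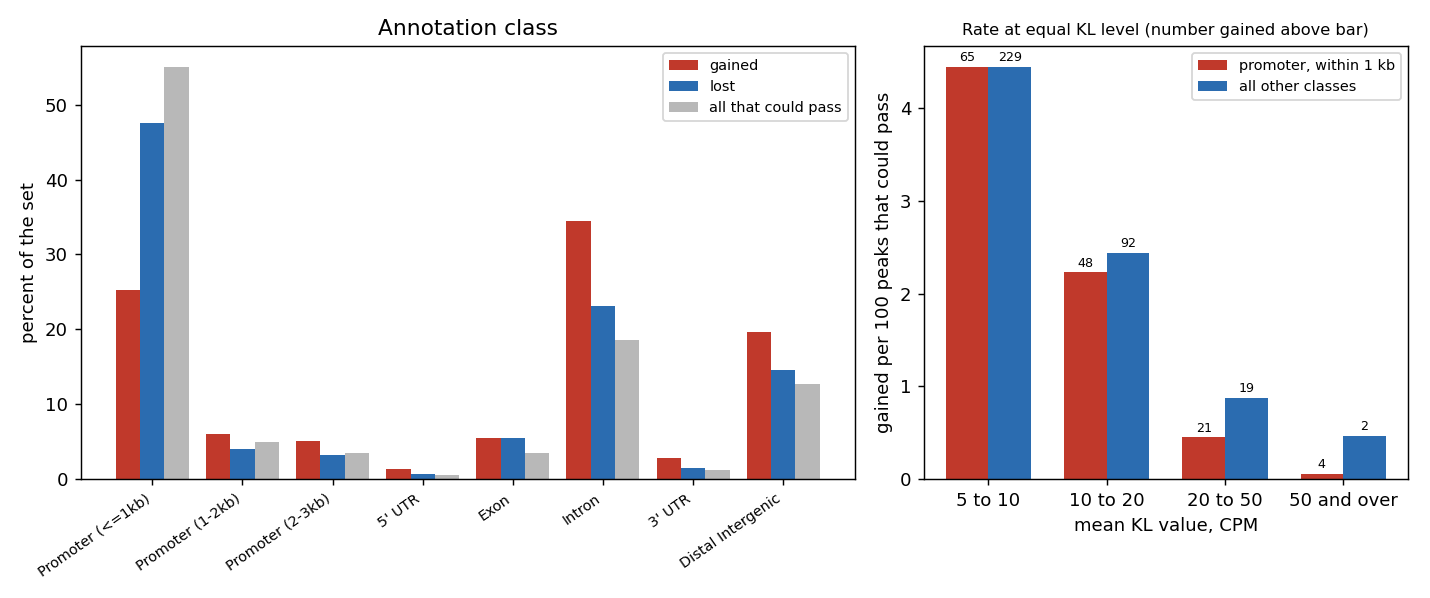
Left, the percentage of gained (984), lost (1783) and all peaks that could pass (28968) in each annotation class. Could pass refers to the rule for gained peaks, and lost peaks need not be among them. Right, gained peaks per 100 that could pass, by mean KL level in CPM, for promoter peaks within 1 kb and all other classes. Promoters within 1 kb make up 25.3% of the gained peaks and 55.1% of those that could pass, and the bars on the right are level at 5 to 10 CPM, with 4.45 each.

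Most gains were small and at weak peaks. The median ratio of the lower KLG4m/m to the higher KL value, called the gap below, was 1.57, and 147 peaks had a gap above 2, 20 above 3 and 9 above 5. The mean KLG4m/m value was under 10 CPM at 542 peaks and 50 CPM or more at 18. The median log2 ratio of group means, with 1 CPM added to each, was 0.78, a size the rule itself sets, beside 0.03 for all peaks that could pass. KLG4m/m replicate 3 was the higher of its pair at 499 of the 984 peaks. Just inside the limit lay a promoter peak of *Tfeb*, with 64 and 59 reads in KL against 102 and 84 in KLG4m/m. Just outside lay one of *Stc2*, with 48 and 45 reads in KL against 67 and 64 in KLG4m/m. The peaks on either side of the limit hardly differ, and 177 more peaks met the ratio but not the minimum mean.

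**Figure D2:**
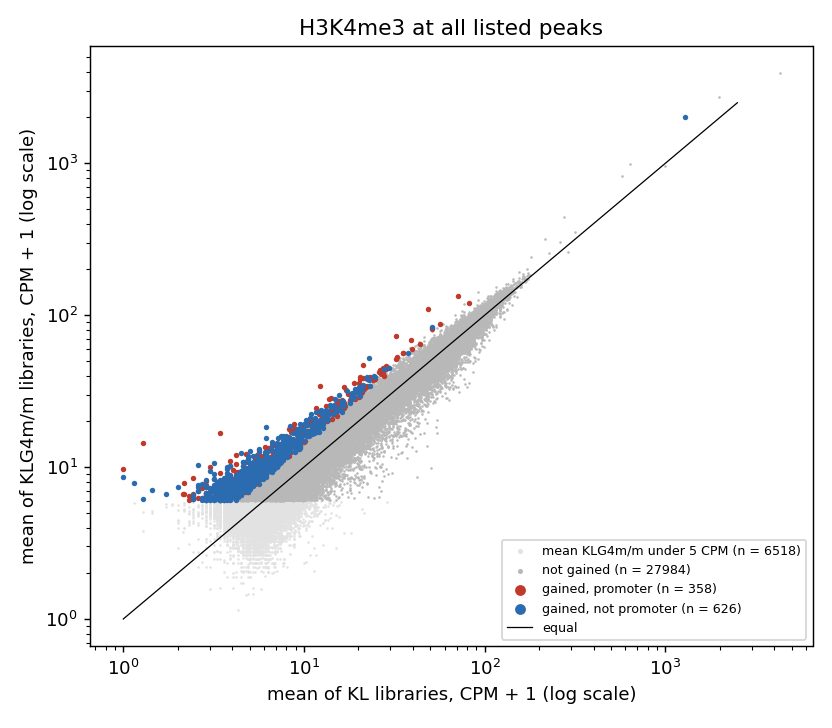
Mean CPM of the KLG4m/m libraries against mean CPM of the KL libraries for all 35486 listed peaks, both plus 1 and on log axes, with gained promoter peaks (358) and other gained peaks (626) in colour. Gained peaks lie above the line of equal values, as the rule requires, and crowd at the low end, with a median of 4.84 CPM in KL.

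In edgeR's quasi-likelihood test over all listed peaks, 547 of the 984 gained peaks (55.6%) had an adjusted p under 0.05 and were higher in KLG4m/m, against 3.1% of all 35486 peaks. The rule used the same contrast, so nothing is read from that share. The count fell to 314 without KL replicate 1 and to 241 without KL replicate 2. Without KLG4m/m replicate 3 or 4, edgeR called 0, with 688 and 721 at an unadjusted p under 0.05, and DESeq2 on all 4 libraries called 23 of the 447 gained peaks for which it gave an adjusted p.

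The largest gaps were at peaks nearly empty in KL. In all, 7 gained peaks had 3 reads or fewer in both KL libraries. A peak at chr11:81938774-81939174, 2236 bp downstream of the start of *Ccl7*, a chemokine that draws monocytes, held 1 and 1 read in KL and 41 and 48 in KLG4m/m. That is 46.2-fold, with a counting interval of 12.4 to 386. Intervals here are exact, at 95%, on the summed reads and cover counting error only. A nearby peak assigned to *Ccl2*, the related monocyte chemokine, had 6 and 1 reads in KL and 20 and 11 in KLG4m/m, and its mean of 4.59 CPM kept it out of the set. Coordinates are those of the deposited table, whose contig names are of GRCm39 although the methods name an Ensembl release built on GRCm38.

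A group of these peaks lay in and beside exons of *Esr1*, the gene of estrogen receptor alpha, on chromosome 10. The peak at chr10:4806847-4807247, in exon 6, held 1 and 0 reads in KL and 21 and 25 in KLG4m/m, which is 47.7-fold with a counting interval of 8.12 to 1919. The peak at chr10:4889064-4889464 is in exon 7 of an *Esr1* transcript, although the table assigns it to the nearer start site of *Syne1*, a nuclear envelope protein. It held 1 and 1 read in KL and 21 and 14 in KLG4m/m. The peak at chr10:4951029-4951429, in a 3′ UTR and assigned to *Syne1* as well, held 0 and 0 reads in KL and 31 and 20 in KLG4m/m, at least 8.74-fold higher with a floor of 3 reads per library. All 3 were at or near background in KL and present in both KLG4m/m libraries.

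By contrast, the *Esr1* promoter peak at chr10:4562177-4562577 held 89 and 87 reads in KL and 108 and 109 in KLG4m/m and was not gained. An intron 1 peak of *Esr1* at chr10:4582336-4582736 was gained, with 41 and 61 reads in KL against 92 and 101 in KLG4m/m, a 1.96-fold difference from a peak that KL already had. The ERT2 part of DreERT2 is made from the ligand-binding part of an estrogen receptor, whose sequence is encoded by late exons of that gene. Only KLG4m/m mice carry it, so reads from the knocked-in allele and reads from the *Esr1* locus cannot be told apart in the deposited table.

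Another peak empty in KL was at chrY:90772495-90772895, at the start of the predicted gene *Gm15247*. It held 0 and 0 reads in KL and 25 and 33 in KLG4m/m, at least 10.0-fold higher. The listed peak beside it, 697 bp from that start, was lower in KLG4m/m, with 22 and 26 reads in KL against 8 and 7 in KLG4m/m. *Gm15247* also has a promoter peak on chromosome X, with 134 and 126 reads in KL against 80 and 100 in KLG4m/m, so reads of near-identical copies may be split between them and these values are uncertain. The same holds for *Srp54b*, 1 of several tandem copies of a signal recognition particle gene, whose promoter peak held 7 and 10 reads in KL against 46 and 59 in KLG4m/m, while that of *Srp54c* held 73 and 75 in KL and 103 and 92 in KLG4m/m.

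The remaining peaks with the largest gaps were assigned to genes of varied function, many of them predicted. At the *Il4* promoter, a cytokine gene of type 2 immunity, 8 and 6 reads in KL stood against 30 and 30 in KLG4m/m, 4.44-fold. *Il1rl1*, the receptor of interleukin 33, had 2 gained promoter peaks, with 2 and 6 reads in KL against 20 and 18 in KLG4m/m, and 6 and 7 against 23 and 20. Its 2 listed peaks further upstream were not gained. The promoter of *Fam3d*, a gut-enriched secreted protein, had 4 and 4 reads in KL and 23 and 23 in KLG4m/m. Peaks assigned to *Fabp6*, the ileal bile acid binding protein, and *Vps39*, a subunit of an endosomal tethering complex, lay in introns of other genes. These were *Ccnjl*, 21.2 kb from the *Fabp6* start, and *Tmem87a*, 14.1 kb from the *Vps39* start. Both peaks had 0 to 3 reads in each KL library and 16 to 24 in each KLG4m/m library. *Gm40632*, *F930017D23Rik*, *Gm52313*, *Gm26272*, *Gm22069*, *4933431G14Rik* and *Cyp21a1* made up the rest.

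**Figure D3:**
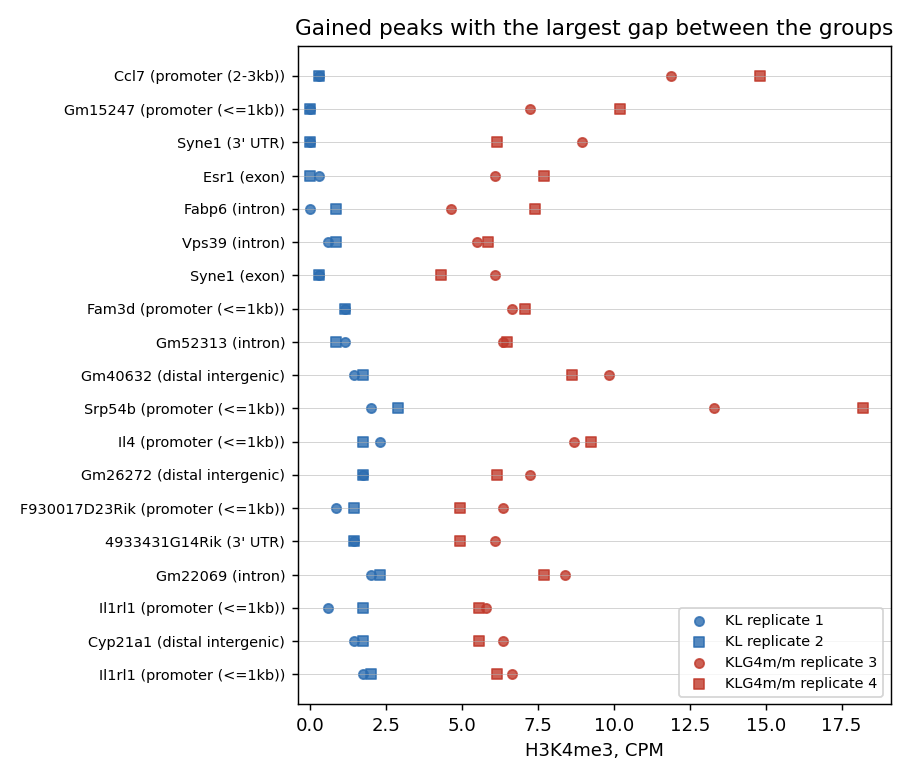
H3K4me3 in CPM in each of the 4 libraries at the 19 gained peaks with the largest gap, 7 of them with 3 reads or fewer in both KL libraries; each row is 1 peak, named by its assigned gene and annotation class. No KL value of these peaks exceeds 2.89 CPM.

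At the upper end, the strongest gained peak was in intron 4 of a transcript, assigned to *Gm52915*, at chr6:103625956-103626356. It held 4325 and 4542 reads in KL and 7258 and 6217 in KLG4m/m, a mean of 2009 CPM in KLG4m/m beside 132.0 CPM at the next gained peak. Its KL mean was 1280 CPM, where intron peaks that could pass had a median of 8.81 CPM. Whether its reads map uniquely was not checked, so the values of this peak are uncertain. Among promoters, *Pgk1* had 250 and 234 reads in KL and 432 and 450 in KLG4m/m, 1.89-fold. *Kif11* followed with 263 and 295 in KL and 415 and 390 in KLG4m/m, 1.49-fold, just inside the rule. *2700054A10Rik*, on chromosome 17, had 2 gained peaks, the stronger with 161 and 169 reads in KL against 398 and 328 in KLG4m/m. A peak assigned to *Gm36589* on the same chromosome, at chr17:13525735-13526135, held 77 and 74 reads in KL and 188 and 158 in KLG4m/m. At these read numbers the counting error is small beside the difference between the groups, but it covers no other source of error.

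Strong gained peaks outside promoters included an exon peak assigned to *Setd4*, a lysine methyltransferase, with 90 and 73 reads in KL against 138 and 123 in KLG4m/m, and a 3′ UTR peak at *Phospho1*, a phosphatase of mineralising cells, with 59 and 62 against 105 and 95. *Hjurp*, the chaperone that loads the centromeric histone variant, had 2 gained 3′ UTR peaks, with 60 and 58 against 86 and 84 and with 28 and 36 against 51 and 52. Upstream of the start of *Gng2*, a G protein gamma subunit, an intergenic peak went from 63 and 67 to 100 and 101. None of these regions is a start site in the annotation used.

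Gained peaks were scattered over genes, with some local groups. They were assigned to 905 genes, of which 843 had 1 gained peak, 50 had 2 and 12 had 3 or more. For 265 genes every listed peak was gained, but 251 of these had only 1 listed peak. *Rin3*, an exchange factor for RAB5 proteins, had the most, 6 of its 12 listed peaks, in 2 clusters over 54.8 kb. Summed over these 6 peaks it had 205 and 220 reads in KL and 409 and 369 in KLG4m/m. Its other peaks held 378 and 355 in KL and 406 and 350 in KLG4m/m, so the rest of the gene showed hardly any difference in total.

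*Prkce*, the epsilon isoform of protein kinase C, had 4 gained intron peaks of 7 listed over 170.0 kb, summing to 51 and 50 reads in KL and 136 and 108 in KLG4m/m. Its other peaks held 109 and 115 in KL and 103 and 76 in KLG4m/m. *Tiam1*, a RAC exchange factor, had 4 of 14, from 171 and 162 to 265 and 291. *Ifitm1* had 3 of 3, at its promoter and up to 2958 bp downstream, from 83 and 82 to 154 and 144. *Chst3*, a chondroitin sulfotransferase, had 3 of 4, and *Foxp1*, a forkhead repressor of lung and lymphoid development, 3 of 27. *Rap1gap2*, *Nedd4l*, *Timm8a2*, *Gm4799*, *Gm54307* and *Syne1* also had 3 each.

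Other listed peaks close to a gained peak tended to be higher in KLG4m/m too. For the 135 gained peaks with other listed peaks within 2 kb, the median log2 ratio of those neighbours was 0.37, and it was above 0 for 85.2%. It fell to 0.18 at 2 to 10 kb, 0.10 at 10 to 50 kb and 0.03 at 50 to 200 kb, where 58.9% were above 0. Within 10 kb, 80 gained peaks (8.15%) had another gained peak, against 2.33% of the peaks that could pass and were not gained. Neighbours share the libraries that chose the gained peaks and can belong to 1 domain of the mark, so these values are a description.

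**Figure D4:**
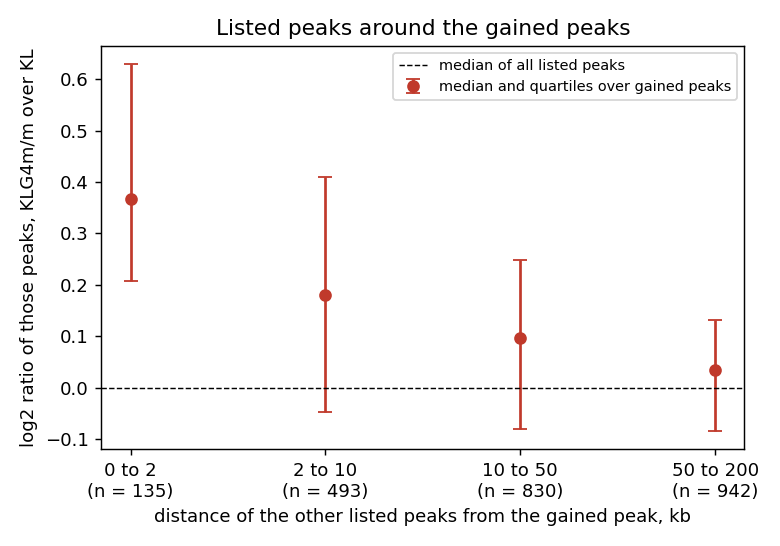
Log2 ratio, KLG4m/m over KL, of the other listed peaks at increasing distance in kb from a gained peak; points are medians over gained peaks and bars their quartiles, and n is the number of gained peaks with such neighbours. The median falls from 0.37 within 2 kb to 0.03 at 50 to 200 kb, near the dashed median of all listed peaks.

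Promoters of genes with a gained peak elsewhere were described in the same way. Of 626 gained peaks outside promoters, 342 had a gene with a listed promoter peak, 310 genes in all. The strongest promoter peak of these genes had a median log2 ratio of 0.02, above 0 in 164 of 310 genes (52.9%). Of the genes' promoter peaks within 1 kb, 13 were themselves gained. Over all promoter peaks within 1 kb that could pass, 1.56 per 100 were gained. How many such peaks these genes have was not counted, so the 13 is not a rate. For the 59 genes with a gained peak 1 to 3 kb from the start and a listed promoter peak within 1 kb, the median was 0.32, 47 (79.7%) were above 0 and 9 promoter peaks were gained. The promoters of the more distant gained peaks were thus near the median of all peaks, and those beside gained flanks lay above it.

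By gene function, leukocyte marker lists differed in how many of their peaks were gained. B cell markers had 6 gained peaks of 16 that could pass, in 5 of the 8 genes with a listed peak, beside 3.4 per 100 over all peaks that could pass. *Bank1* had 29 and 25 reads in KL and 63 and 58 in KLG4m/m at its start site, and 16 and 10 against 39 and 36 at 875 bp. The promoter of *Ms4a1*, which encodes CD20, had 20 and 17 against 28 and 34. Peaks near *Pax5* and in an intron of *Ebf1*, transcription factors of B cell identity, had 15 and 14 against 24 and 37 and 11 and 8 against 16 and 18. The B cell gains described here were at low read numbers. *Cd79a*, also a defining gene, had no listed peak.

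Macrophage and neutrophil markers had 3 and 1. Of 27 macrophage peaks that could pass, 3 were gained: promoters of *Itgam*, with 25 and 31 reads in KL against 56 and 47 in KLG4m/m, and of *Siglecf*, with 19 and 25 against 36 and 34, and a distant peak of *Adgre1*, with 9 and 16 against 24 and 23. By the mirrored rule 2 macrophage peaks were lost, and the summed peaks of *Lyz2*, the lysozyme of macrophages and alveolar type 2 cells, were 55.2 and 59.5 CPM in KL against 35.6 and 39.1 CPM in KLG4m/m, and those of the mannose receptor *Mrc1* 13.9 and 14.7 against 12.2 and 10.5 CPM. Of 13 neutrophil peaks 1 was gained, near *S100a9*, with 34 and 35 against 68 and 52. No peak was gained among 41 of T and NK cell genes and 9 of pan-leukocyte genes.

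The summed level of these lists was higher in KLG4m/m as well. All listed peaks of the B cell list summed to 159 and 142 CPM in KL and 205 and 216 CPM in KLG4m/m. The macrophage list summed to 458 and 467 against 527 and 538, the neutrophil list to 138 and 142 against 185 and 186, the T and NK cell list to 675 and 656 against 716 and 738, and the pan-leukocyte list to 334 and 327 against 375 and 390. In each of these 5 lists the sums of both KLG4m/m libraries were above those of both KL libraries. By single markers this held for 7 of 8 B cell, 7 of 10 macrophage, 5 of 7 neutrophil, 8 of 13 T and NK cell and 4 of 4 pan-leukocyte genes with a listed peak, and 1 B cell, 2 macrophage and 1 T and NK cell genes were lower in both KLG4m/m libraries. *Cd79a*, *C1qa*, *C1qb*, *Marco*, *Laptm5* and *Dock2* had no listed peak in any library. The part of leukocytes in the gained peaks was not tested.

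Apart from the basal and squamous list described below, epithelial lists were lower in KLG4m/m or differed little. Alveolar type 2 markers had 0 gained of 11 and summed to 410 and 432 CPM in KL against 329 and 306 in KLG4m/m. The epithelial list had 0 of 14 and went from 308 and 301 to 263 and 269. Alveolar type 1 and club and ciliated cells had 1 gained peak each, of 18 and of 13 that could pass. The first was assigned to *Clic5*, a chloride channel family protein, with 15 and 13 reads against 29 and 26. It lay 13.0 kb upstream of the nearest *Clic5* start, in intron 2 of *Gm34917*. All 10 listed peaks of *Clic5* summed to 130 and 117 CPM in KL and to 128 and 112 CPM in KLG4m/m. The other was at *Cyp2f2*, a club cell cytochrome, with 10 and 12 against 27 and 21. Endothelial markers had 0 of 19 and neuroendocrine markers 0 of 4. By the mirrored rule, 5 peaks each were lost among alveolar type 1 and alveolar type 2 markers. Epithelial, endothelial and neuroendocrine markers lost 1 each, and club and ciliated and fibroblast markers 0. Among fibroblast markers 1 of 4 was gained, the promoter of *Pdgfrb*, with 9 and 10 against 22 and 23.

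The basal and squamous list had 1 gained peak of 7, 7179 bp downstream of the start of *Sox2*, a transcription factor of airway and squamous cells. It held 10 and 14 reads in KL and 41 and 35 in KLG4m/m, 3.27-fold. The list summed to 56.9 and 60.1 CPM in KL and 86.0 and 84.8 CPM in KLG4m/m, although *Trp63*, *Krt5*, *Krt6a*, *Krt14*, *Krt15* and *Dsg3* had no listed peak. *Sftpc*, *Slc34a2* and *Krt7*, markers of alveolar and other lung epithelium, had none either, so a missing peak does not show that a gene is inactive. *Klf5*, a Kruppel-like factor of epithelial progenitors, had 2 gained intergenic peaks upstream, with 9 and 7 reads against 28 and 19 and 7 and 4 against 25 and 15.

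**Figure D5:**
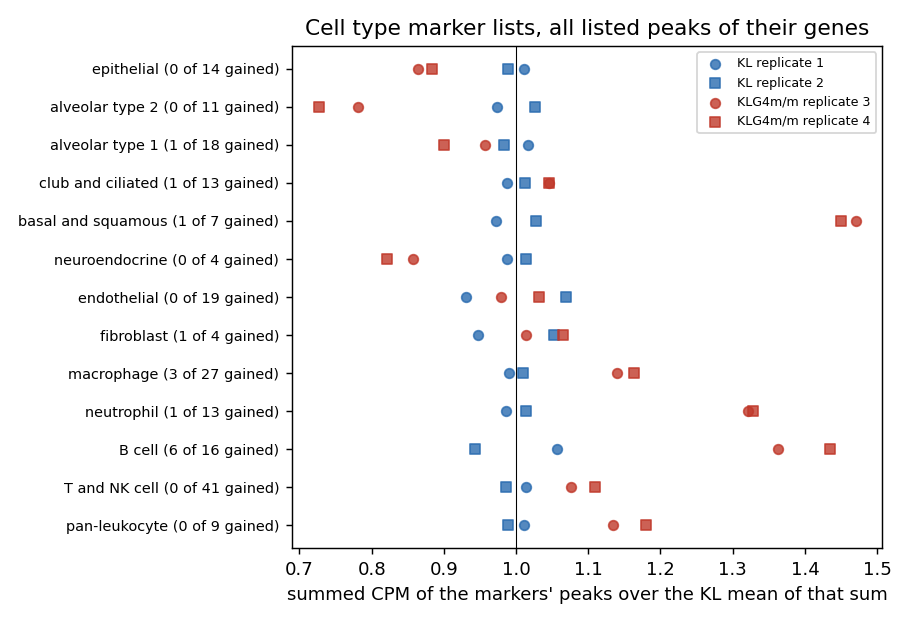
Summed CPM of all listed peaks of each cell type marker list in each of the 4 libraries, divided by the mean of the KL sums; the label gives the number of gained peaks of those that could pass. B cell, neutrophil, macrophage, T and NK cell, pan-leukocyte and basal and squamous lists lie above 1 in both KLG4m/m libraries, club and ciliated and fibroblast lists slightly so, and alveolar type 1 and 2, epithelial and neuroendocrine lists lie below.

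Lipid genes were the study's main interest. Of its 10 triacylglycerol (TAG) synthesis-related genes, a list chosen by the study with these samples at hand and so not independent, 6 of 21 peaks that could pass were gained, in 5 genes, beside 3.4 per 100 over all peaks that could pass. *Plpp1*, a lipid phosphate phosphatase, had 73 and 61 reads in KL and 128 and 126 in KLG4m/m at its promoter. *Apoe*, the lipoprotein component, had 42 and 32 against 75 and 82 at its promoter. The gained peak of *Dgat2*, the enzyme of the last step of TAG synthesis, lay 6.74 kb upstream, with 32 and 41 against 58 and 69, while its promoter peak held 354 and 381 against 364 and 319. *Gpam*, the mitochondrial acyltransferase of the first step, had 2 gained peaks, 33.8 and 35.8 kb from the start, and *Pla2g4a*, cytosolic phospholipase A2, 1 in intron 1. For *Dgat2* and *Gpam* the gain was thus away from the start site. *Gpam* had no listed promoter peak, so only for *Dgat2* could the promoter be set beside the gained peak. By the mirrored rule 1 peak of the 10 genes was lost.

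Among 44 peaks of other TAG and lipid droplet genes 2 were gained. *Srebf1*, a transcription factor that drives lipid synthesis, had a gained start site peak with 112 and 105 reads in KL against 240 and 240 in KLG4m/m, 2.29-fold. The other *Srebf1* start site peaks were level, with 166 and 204 against 178 and 161 and with 249 and 270 against 238 and 262, so the gain was at 1 of 3 start sites. The monoglyceride lipase gene *Mgll* had 7 and 9 against 19 and 16 in an intron. Cholesterol genes had 1 of 24, in an intron of the efflux pump *Abca1*, and fatty acid synthesis genes 0 of 26.

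Ferroptosis is the iron-dependent death by lipid peroxidation that GPX4 prevents. None of 31 peaks of ferroptosis defence genes was gained, and their sums were 1398 and 1349 CPM in KL and 1393 and 1389 CPM in KLG4m/m. Of 28 peaks of genes that promote it 2 were gained, the *Alox5* promoter with 68 and 65 reads against 96 and 90 and a peak 11.8 kb upstream of *Por*, an electron donor of cytochromes, with 17 and 16 against 28 and 34. Beside 3.4 per 100 over all peaks that could pass, lists of this size would hold few gained peaks or none at the same rate. AP-1 factors (0 of 19), NF-kB subunits and inhibitors (0 of 27), epidermal growth factor ligands and receptors (0 of 13), antigen presentation (0 of 24) and the integrated stress response (0 of 11) had none. The epithelial-mesenchymal transition list had 1 of 16, the *Twist2* promoter, with 11 and 12 against 19 and 18.

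Of gene families taken by symbol, interleukins and their receptors had 11 gained of 111 peaks that could pass, 9.91 per 100, in *Il10ra*, *Il12a*, *Il16*, *Il1rl1*, *Il2*, *Il21r*, *Il4*, *Il5ra*, *Il9* and *Il9r*. The *Il12a* promoter, a subunit of interleukin 12, had 72 and 51 reads in KL and 114 and 119 in KLG4m/m. Chemokines and their receptors had 5 of 71, at *Ccl7*, *Ccr7*, *Cxcr1* and *Cxcr5*. Integrins had 4 of 50. Zinc finger genes had 6 of 430, 1.4 per 100, solute carriers 11 of 405 and the TGF-beta and BMP genes 1 of 78. Histone genes had 0 of 53. Among homeobox genes, with 7 of 144, the *Pax9* promoter went from 40 and 51 reads to 95 and 88. The rates of these families thus ran from 0 to 9.91 per 100, beside 3.4 per 100 over all peaks that could pass. The families were not compared at equal KL level.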

How the data were processed

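H3K4me3 CUT&Tag was measured in 4 libraries, KL replicates 1 and 2 and KLG4m/m replicates 3 and 4, grouped by the genotype in the labels. According to the labels and the methods, the authors trimmed reads with Trim Galore 0.6.10, mapped them with BWA 0.7.15, removed duplicates with Picard 2.17.3 as well as mitochondrial and low-quality reads, called peaks with MACS2 2.2.7.1 and annotated them with HOMER 4.11.1. The authors deposited 1 table of peaks, and how they merged peaks over libraries is not given in the sources used here. It holds the deposited counts, whole reads per peak and library without normalization, and the deposited CPM of each library, with the sum over listed peaks as the authors' total. It also holds the authors' distance in bp to the nearest start site and their own comparison of the groups (fold change, test statistic and p-values), which was not used. The CPM scaling cannot show a gain or loss shared evenly by all peaks.

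The gained peaks were taken by the rule on the deposited CPM, and the mirrored rule gave the lost peaks. Medians, shares and rates per 100 peaks that could pass are descriptions. Counts of all 35486 peaks were also compared with edgeR 4.0.16 (quasi-likelihood test, TMM scaling, no filter, no covariate, two-sided, Benjamini-Hochberg adjustment over all peaks, threshold 0.05) in R 4.3.3, which was tested on simulated data. edgeR's exact test, limma 3.58.1, DESeq2 1.42.0, other ratios, minima and scalings, pseudocounts and leaving out each library were alternatives. Tables were made with Python 3.11.15, pandas 2.3.3 and scipy 1.17.1. The replicates differed by more than sampling noise (chi-square per degree of freedom 1.13 in KL and 1.23 in KLG4m/m), so each library counted as 1 sample. With 3 mice named for 4 libraries, p-values measure only the spread between these samples, which may be technical. Libraries held 3244495 to 3463731 reads in peaks.

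Named peaks were the 12 with the largest gap, as well as every peak with 3 reads or fewer in both KL libraries, the 4 strongest of each annotation class, those in the cell type and pathway lists, the strongest 3 of each family list, genes with 3 or more gained peaks and the 5 on each side of the limit, from which the text takes examples. *Gpx4* and *Stk11* and other peaks of named genes are given beside them, and some items that the rule names are not reported here. The gained peaks and the lists were chosen with earlier results of these data known. Symbols of 853 of 905 genes were matched to RefSeq.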

Additional observations from a re-analysis of the deposited data

How the results depend on the processing

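Of the 984 gained peaks, 147 stayed with a ratio above 2 and 442 with a minimum mean of 10 CPM, and a ratio above 1.2 gave 2529. Leaving out 1 library, which lets the remaining one of its group decide, gave 1911 to 2204. Other scalings and no minimum kept the number within 1.5 times. The promoter share of 36.4% became 41.2% with a ratio above 1.2 and 42.5% with a minimum of 10 CPM, and lay between 34.7% and 36.7% when 1 library was left out. The distal intergenic share of 19.6% became 23.8% with a ratio above 2 and 14.7% with a minimum of 10 CPM, and lay between 21.0% and 21.7% when 1 library was left out. The median log2 ratio of 0.78 was 0.87 with a pseudocount of 0.25 CPM, 0.58 with 4 CPM and 0.79 with TMM-scaled CPM, and 0.77 to 0.78 without 1 library. Against 1099 of all listed peaks called higher by edgeR, DESeq2 called 33, and 0 to 702 were called when 1 library was left out. Against 547 of the gained peaks, DESeq2 called 23, and 0 to 314 were called when 1 library was left out. The lowest counts came without a KLG4m/m library (0 without replicate 3 and 0 without replicate 4), where 1 library stands for its group and is assumed to vary like the other group. The cause of the DESeq2 counts was not tested. No paired analysis was possible because the KL libraries are numbered 1 and 2 and the KLG4m/m libraries 3 and 4, so that no number is shared between the groups. The median gained peak held 29 reads in its lower KLG4m/m library, so counting error limits single peaks.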

Other observations

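By the type of their assigned gene, 600 of the gained peaks belonged to protein-coding genes (2.86 per 100 that could pass), 239 to long noncoding RNAs (4.86 per 100), 57 to pseudogenes (5.18 per 100) and 9 to microRNA genes. The microRNA peaks included the start site of *Mir149*, with 44 and 42 reads in KL against 71 and 76 in KLG4m/m, and the region 35 bp from the start of *Mir196b*, with 27 and 25 against 50 and 57, both named after their values were seen. Gained peaks lay on every listed chromosome, from 2.21 per 100 that could pass on chromosome 15 to 4.72 on chromosome 14, apart from chromosome Y with 2 of 8. Unplaced contigs had 2 of 34, among them an exon peak with 175 and 172 reads in KL against 299 and 258 in KLG4m/m.

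Runs of gained peaks less than 20 kb apart were short: 851 stood alone, 56 runs had 2 and 7 had 3. Of the runs of 3, 1 lay on chromosome 12 from 25289923 to 25319811, assigned to *Gm36441* and *Gm19340*, with 63 and 58 reads in KL against 127 and 119 in KLG4m/m, and 3 of its 4 listed peaks were gained. In 158 gained peaks (16.1%) the gene that contains the peak was not the gene of the nearest start site, so the assigned gene is uncertain there, as it is for every intergenic peak.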
